A study of Mus musculus with 16 samples.

Results

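The central myelin genes described here are 9 genes whose proteins build, organise or direct the myelin that oligodendrocytes wrap around axons in the spinal cord. Mbp, Mog, Mag, Mobp, Cnp, Mal, Cldn11, Opalin and Myrf were found by gene symbol, 9 of the 24411 symbols in the files, and all 9 were among the 16091 genes tested. Bulk RNA sequencing was performed on a 5 mm segment of spinal cord from each of 16 female C57BL/6J mice. In the SCI + Vehicle (n = 7) and SCI + Atorvastatin (n = 7) groups, the cord was compressed laterally to 0.25 mm at T8-9 under ketamine and xylazine at 12 wk of age. From 2 wk post-injury these mice were injected daily for 4 wk with vehicle (DMSO, PEG 400, Tween 80 and saline) or with 10 mg/kg atorvastatin, a statin that inhibits cholesterol synthesis, in the same vehicle. The Uninjured Control mice (n = 2) had neither injury nor treatment, so a comparison with them includes the surgery, the drugs given around it and the vehicle injections together with the injury. The sources differ on the exact day of isolation and on the age of the Uninjured Control mice. The sample records give an age of 12 wk for every mouse and isolation at 6 wk post-injury. The study describes the Uninjured Control mice as younger at isolation than the injured mice, so a comparison with them also includes age. The segment was taken around the injury, or at the corresponding level in the Uninjured Control mice, and each library mixes every cell type in it.

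Myelin of the central nervous system is made by oligodendrocytes, each of which extends sheets of membrane around several axons. In compact myelin the cytoplasm is squeezed out and the membranes are held together, while at the inner and outer edges proteins face the axon or the extracellular space. The maturation of oligodendrocyte precursors into myelinating cells depends on the transcription factors SOX10, OLIG2 and MYRF. After spinal cord injury oligodendrocytes die, precursors divide and replace part of them, and Schwann cells, the myelinating cells of peripheral nerve, can enter the cord.

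The sequences before the start sites of Cldn11 and Mog are shown because these were the 2 central myelin genes that passed the test in both injured groups, in opposite directions. Each is the 250 bases before a RefSeq start site on GRCm38.p6, written 5′ to 3′ on the strand of the gene, at chr3:31149670-31149919 on the plus strand for Cldn11 and chr17:37023399-37023648 on the minus strand for Mog. Capitals mark matches on either strand to ACAANG, a core of the SOX motif, or CTGGNAC, a core of the MYRF motif. No 2 matches overlapped.
Cldn11: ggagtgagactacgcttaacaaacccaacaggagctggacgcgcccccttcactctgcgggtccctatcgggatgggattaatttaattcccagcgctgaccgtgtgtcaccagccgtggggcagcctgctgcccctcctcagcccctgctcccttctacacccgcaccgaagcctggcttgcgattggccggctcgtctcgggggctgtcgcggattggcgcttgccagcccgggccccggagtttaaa
Mog: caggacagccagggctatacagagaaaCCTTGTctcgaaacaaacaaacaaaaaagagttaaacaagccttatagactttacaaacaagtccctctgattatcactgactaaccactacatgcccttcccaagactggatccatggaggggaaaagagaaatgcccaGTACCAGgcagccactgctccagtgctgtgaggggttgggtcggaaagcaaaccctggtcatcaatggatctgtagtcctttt

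The Mog window held 1 match to each motif and the Cldn11 window none. Of the 7 members with a window in the RefSeq table, 5 had a SOX match (Cnp, Mag, Mobp, Mog and Opalin) and 3 a MYRF match (Cnp, Mag and Mog). The Mobp window held the most, 6 SOX matches. Among all 32851 windows of the same length, 36.3% held the SOX letters and 16.1% the MYRF letters. These shares count windows, whereas the 7 members had 9 windows and were counted as genes with a match in any window. A match describes letters only.

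Libraries held 14823292 to 25579826 counts on genes, and each member had between 208 and 220299 counts in every mouse, so none was near the limit of 3 counts that a count of 0 allows. The 2 Uninjured Control libraries stood apart from the others. They had at least 1 count in 12732 and 12356 genes, against 16399 to 19338 in the injured mice, and all 11 liver genes of a marker list were present, with a summed TPM (a level scaled to library size and corrected for transcript length) of 6747 and 1293 against 5.06 to 33.85 in the injured mice. All 6 kidney genes were at 0 in both controls and at most 1.17 TPM in sum in an injured mouse. Among the injured mice, SCI + Vehicle replicates 4 and 7 were low in Schwann cell genes, with a summed TPM of 116 and 109 over 9 genes against 293 to 444 in the other SCI + Vehicle mice. Replicate 2 of the Uninjured Control group was above replicate 1 in TPM for 8 of 9 members, by 1.25-fold (Mog) to 1.92-fold (Cldn11), and Opalin was at 0.937-fold. Each library came from a separate mouse.

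The central myelin genes covered a wide range of abundance. In the injured mice the order by mean TPM was Mbp, Mobp, Cnp, Mal, Mag, Cldn11, Mog, Myrf and Opalin, from 9695 for Mbp to 78.6 for Opalin. Mbp stood 11.7 times above Mobp and made up 74.4% to 80.6% of the summed TPM of the 9 genes in the injured mice. Together the 9 genes held 1.08% to 1.59% of all TPM. Some neighbours in this order did not separate, since Mobp was above Cnp in 11 of 14 injured mice, Mal above Mag in 10 and Myrf above Opalin in 10. Cnp lay above Mal, Mag above Cldn11 and Cldn11 above Mog without any overlap between the injured mice. In the Uninjured Control mice Cldn11 was above Mog in 1 of 2, the exception being replicate 1.

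**Figure D1:**
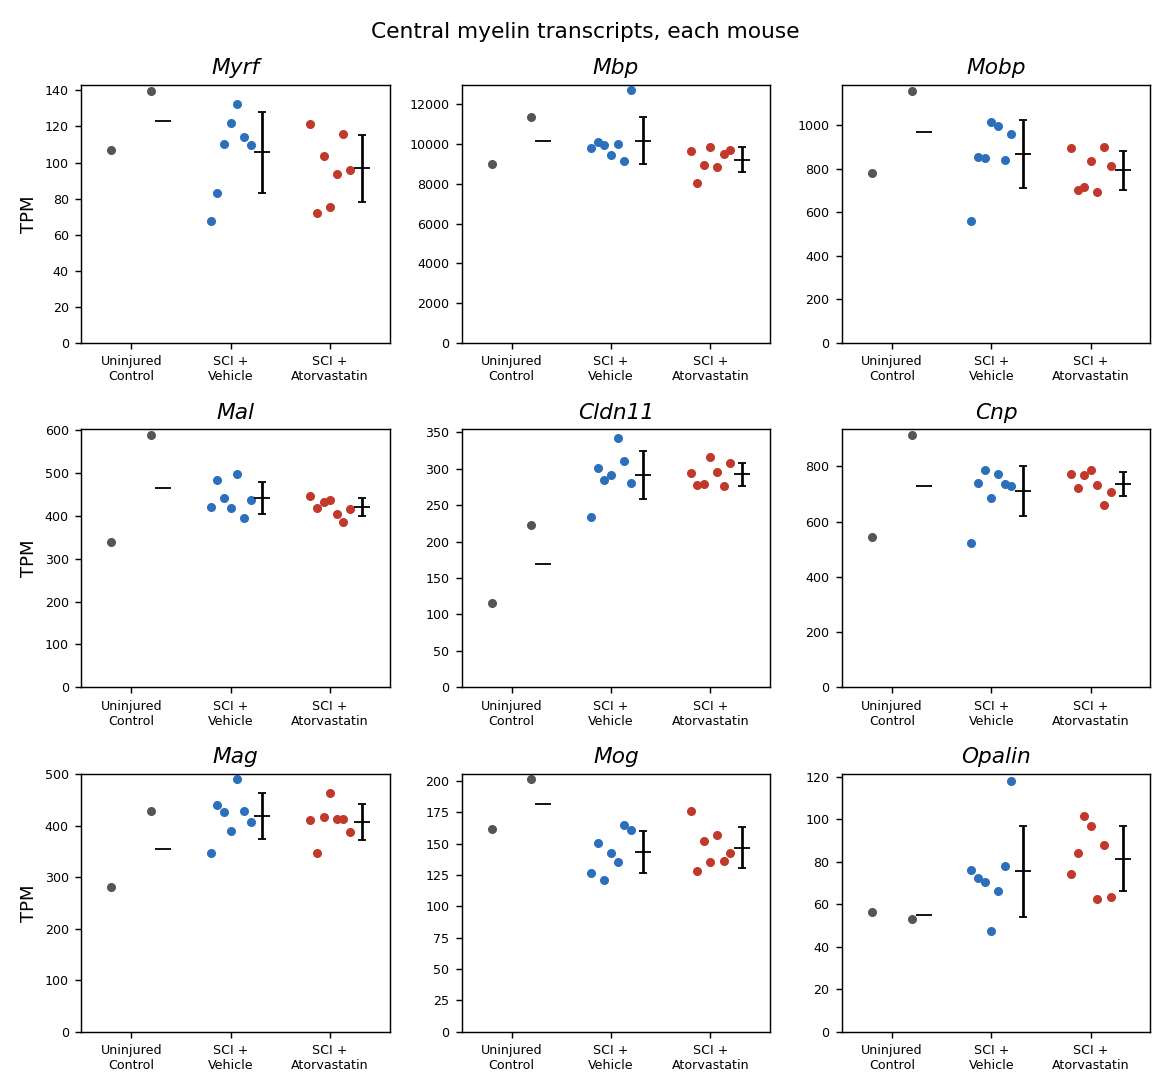
TPM of each central myelin gene (y axis, from 0) in every mouse, by group on the x axis. Points are mice, black dashes are group means and bars are 1 SD (groups of 7 only). Cldn11 lies above both Uninjured Control mice in all 14 injured mice, whereas for Mal all 14 lie between the 2 control mice.

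To ask how chronic SCI with vehicle differs from the uninjured cord, counts in the SCI + Vehicle and Uninjured Control groups were compared with edgeR's quasi-likelihood test. A gene was called as a DEG at an absolute log2 fold change above 0.322, a rise of 25% or its inverse, with a Benjamini-Hochberg adjusted p below 0.05 over all 16091 genes. With vehicle, 2 of 9 members passed against the Uninjured Control group, Cldn11 upregulated and Mog downregulated, while 29.8% of all genes tested passed. Members upregulated were 1 of 9, with 19.9% of all genes called as upregulated. Members downregulated were 1 of 9, with 1594 of all 16091 genes called as downregulated. In SCI + Atorvastatin vs. Uninjured Control, 4 of 9 were called, against 38.9% of all genes. Cldn11 was upregulated, 1 of 9 against 24.9% of all genes, and Mbp, Mobp and Mog were downregulated, 3 of 9 against 2256 of all 16091 genes. The median over the members was -0.29 (vehicle) and -0.34 (atorvastatin) on the log2 scale, beside 0.17 and 0.21 over all genes tested, and 8 of 9 members were below 0 in each comparison. These medians moved with the scale and with the control mouse. On log2(TPM + 1) they were -0.0016 and -0.09, with 4 members above 0 in each comparison, and without Uninjured Control replicate 2 they were -0.02 and -0.15, with 4 and 3 above 0. With voom and a weight for each group 0 members were called, beside 0.814% and 0.901% of all genes tested. The 2 Uninjured Control mice were shared by these comparisons. In bulk tissue, fewer oligodendrocytes, less RNA per oligodendrocyte and a different share of RNA from other cells cannot be told apart.

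**Figure D2:**
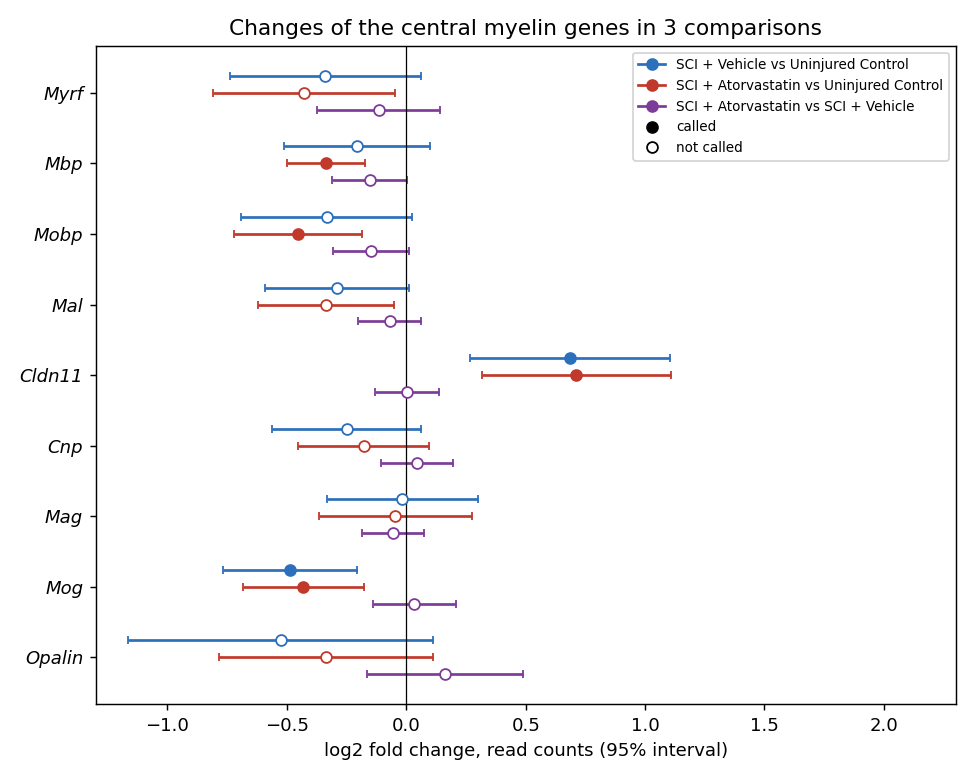
Log2 fold change of read counts (x axis) with its 95% interval for each member (y axis) in 3 comparisons, shown by colour. Filled points were called, with 2 for SCI + Vehicle vs. Uninjured Control, 4 in SCI + Atorvastatin vs. Uninjured Control and 0 in SCI + Atorvastatin vs. SCI + Vehicle.

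Myrf encodes the membrane-bound transcription factor that oligodendrocytes need to start and keep up myelin gene expression. It lies on chromosome 19 of GRCm38 from 10208272 to 10240748, on the minus strand (ENSMUSG00000036098). Its TPM was 107 and 139 in the Uninjured Control mice, ranged from 67.6 to 132 (median 110) with vehicle and from 72.2 to 122 (median 95.7) with atorvastatin. These ranges overlapped. In CPM (read counts scaled by TMM, with no correction for length), all 14 injured mice were below both control mice, which were at 338.5 and 342.05 CPM. The log2 fold change was -0.34 with vehicle (standard error, SE, 0.180, edgeR adjusted p = 0.184) and -0.43 with atorvastatin (SE 0.170, adjusted p = 0.0715), neither of which was called. Myrf and Opalin were the members that varied most among injured mice, with a CV of TPM of 21.3% and 28.1% with vehicle.

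Of the 4 members of compact myelin, Cldn11 was the exception in direction, with a rise in both injured groups. Cldn11 encodes claudin-11, which forms the tight junction strands between myelin layers. It lies on chromosome 3 from 31149920 to 31164324, on the plus strand (ENSMUSG00000037625), directly downstream of the sequence given above. Its TPM was 116 and 223 in the Uninjured Control mice, 233 to 342.8 (median 291) with vehicle and 276 to 316 (median 295) with atorvastatin, and the injured mice did not overlap with the controls. The mean level was 1.61-fold that of the controls on fitted counts with vehicle (log2 fold change 0.69, SE 0.189, adjusted p = 0.0202 from edgeR) and 1.64-fold with atorvastatin (0.71, SE 0.178, adjusted p = 0.00985). The size of this rise depended on the control mouse. Without Uninjured Control replicate 1 the log2 fold change was 0.33 with vehicle (adjusted p = 0.1003) and 0.35 with atorvastatin (adjusted p = 0.0239), and without replicate 2 it was 1.17 and 1.19. Without SCI + Vehicle replicates 4 and 7, both low in Schwann cell genes, it was 0.68 (adjusted p = 0.0534). Cldn11 was called on log2(TPM + 1) with limma in both comparisons, and in neither with voom and a weight for each group (adjusted p of 0.484 and 0.313 from limma).

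Mbp encodes myelin basic protein, which zips the inner faces of the membrane together. It lies on chromosome 18 from 82475146 to 82585637 (ENSMUSG00000041607), and the annotation places the pseudogene Rpl21-ps8 within it. Its TPM was 9013 and 11346 in the Uninjured Control mice, 9173 to 12743 (median 9962) with vehicle and 8049 to 9838 (median 9495) with atorvastatin. On this scale 10 of 14 injured mice lay between the 2 controls. In CPM, 13 of 14 injured mice were below both controls, and SCI + Vehicle replicate 7 was above them, at 9695. The log2 fold change was -0.21 with vehicle (SE 0.138, edgeR adjusted p = 0.288) and -0.34 with atorvastatin (SE 0.0733, adjusted p = 0.00478), the smaller error going with the narrower spread of the SCI + Atorvastatin mice, whose CV of CPM was 5.05% against 15.1% with vehicle. Without Uninjured Control replicate 2 the change with atorvastatin was -0.29, inside the fold limit. Without SCI + Atorvastatin replicate 2 it was -0.31, also inside it.

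Mobp, whose product is an abundant small basic protein of compact myelin, was 782 and 1154 TPM in the Uninjured Control mice, 557 to 1014 (median 855) with vehicle and 694 to 899 (median 811) with atorvastatin. It lies on chromosome 9 from 120149707 to 120181484 and overlaps Gm38642 on the same strand. Its log2 fold change was -0.33 with vehicle (SE 0.162, edgeR adjusted p = 0.148) and -0.45 with atorvastatin (SE 0.12, adjusted p = 0.0131). This call rested on Uninjured Control replicate 2, without which the change was -0.15, inside the fold limit. Mal, on chromosome 2 from 127633226 to 127656695, encodes a proteolipid of lipid-rich membrane domains. All 14 injured mice, from 385 to 498 TPM, lay between the 2 controls at 339 and 589. Its log2 fold change was -0.29 (edgeR adjusted p = 0.133) with vehicle and -0.34 (adjusted p = 0.0601) with atorvastatin, and it was not called.

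Of the 4 members at the periaxonal and outer faces of myelin, Mog was downregulated in both injured groups. MOG, myelin oligodendrocyte glycoprotein, sits on the outermost lamella and is a known target of autoantibodies. The gene lies on chromosome 17 from 37010743 to 37023398, on the minus strand (ENSMUSG00000076439), and the short RNA gene Gm22388 lies within it on the other strand. Mog was 161 and 202 TPM in the Uninjured Control mice, 121 to 165 (median 143) with vehicle and 128 to 176 (median 143) with atorvastatin. In TPM 12 of 14 injured mice were below both controls, and in CPM 14 of 14 were, at 84.6 to 113.7 against 138 and 133. The log2 fold change was -0.49 with vehicle (SE 0.127, edgeR adjusted p = 0.0155) and -0.43 with atorvastatin (SE 0.114, adjusted p = 0.0128). With either control mouse left out, the log2 fold change of Mog was -0.514 to -0.464 with vehicle and -0.464 to -0.407 with atorvastatin. The lone control in such a fit is assumed to vary like the injured mice. With limma on log2(TPM + 1) the changes were -0.34 (adjusted p = 0.110) and -0.30 (adjusted p = 0.0970), which were not called.

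Cnp, a phosphodiesterase that keeps cytoplasmic channels in myelin open, was 544 and 914 TPM in the Uninjured Control mice. With vehicle it ranged from 522 to 788 (median 735) and with atorvastatin from 662 to 787 (median 731), and 13 of the 14 injured mice lay between the controls. Its log2 fold changes of -0.25 (edgeR adjusted p = 0.211) and -0.18 (adjusted p = 0.284) were not called. Cnp, on chromosome 11 from 100574904 to 100591729, overlaps Dnajc7 on the opposite strand, and the setting for strand in the counting was not given in the sources used here. Mag, a sialic acid-binding glycoprotein of the membrane next to the axon, was 281 and 429 TPM in the controls, 347.1 to 490 (median 427) with vehicle and 346.4 to 463 (median 413) with atorvastatin. It lies on chromosome 7 from 30899176 to 30914873. Its log2 fold change was -0.02 with vehicle (95% interval -0.33 to 0.30) and -0.05 with atorvastatin (95% interval -0.37 to 0.27), the smallest of the members in both comparisons.

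Opalin, a transmembrane protein of oligodendrocytes with its gene on chromosome 19 from 41061710 to 41077113, changed sign with the scale of measurement. In TPM it was 56.6 and 53.1 in the Uninjured Control mice, and 13 of 14 injured mice were above both, at 47.4 to 117.9 (median 72.6) with vehicle and 62.5 to 101.6 (median 84.3) with atorvastatin. In CPM it was 31.5 and 36.7 in the controls, and 12 of 14 injured mice were below both. The log2 fold change was -0.53 with vehicle on counts (SE 0.289, edgeR adjusted p = 0.199) and 0.41 on log2(TPM + 1) (limma adjusted p = 0.254). With atorvastatin it was -0.34 (edgeR adjusted p = 0.218) and 0.54 (limma adjusted p = 0.0504). Opalin was called on neither scale.

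RSEM's TPM divides reads by an effective transcript length estimated in each library, and CPM does not. The ratio of TPM to CPM holds that length together with the scaling of each library and any difference between RSEM's reads and the deposited counts, and their parts were not tested. For Opalin the ratio was 1.80 and 1.45 in the Uninjured Control mice and 2.71 to 3.35 in the injured mice, a log2 difference of 0.94. The other 8 members had log2 differences of 0.09 to 0.24. Over the 9208 genes with at least 100 counts in every mouse the median was 0.16, and the range between the 5th and 95th percentiles was -0.23 to 0.74. All 9 members moved up from counts to TPM, and Mag and Opalin went from below 0 on counts to above 0 on log2(TPM + 1) in both comparisons, as did Mbp with vehicle (0.0006) and Cnp with atorvastatin (0.06). On that scale the median over all genes tested was 0.49 (vehicle) and 0.52 (atorvastatin), against 0.17 and 0.21 on counts.

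**Figure D3:**
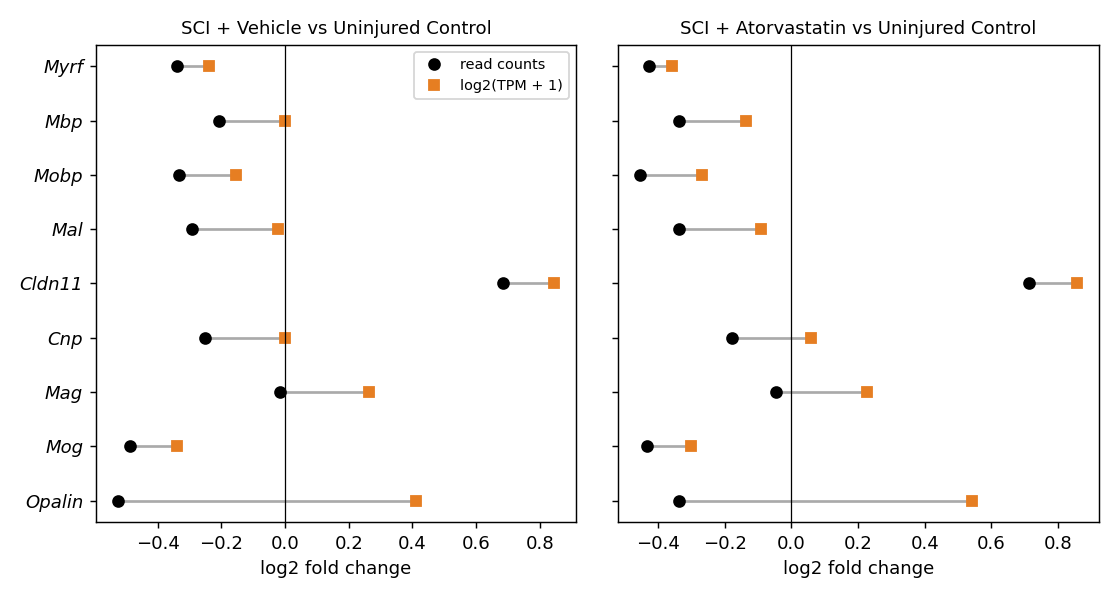
Log2 fold change of each member against the Uninjured Control group (x axis), from read counts (circles) and from log2(TPM + 1) (squares), with vehicle in the left panel and atorvastatin in the right. All 9 squares lie to the right of their circles, with the longest line for Opalin, from -0.53 to 0.41 with vehicle.

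The balance among the members was described by setting each member's log2(TPM + 1) against the mean of the 9 in the same mouse, which removes a shift shared by all of them. By this measure Cldn11 was above both Uninjured Control mice in 14 of 14 injured mice, at -0.72 to -0.37 against -1.48 and -1.06. Mog was below both in 14 of 14, at -1.76 to -1.304 against -1.01 and -1.20. On CPM the numbers were 14 of 14 for Cldn11 and 10 of 14 for Mog. Mobp was below both controls in 13 mice on TPM and 12 on CPM, and Mag above both in 13 and 11. Opalin again depended on the scale, with 8 mice above both controls on TPM and 10 below both on CPM. The 9 values of a mouse sum to 0 by construction, so they do not move independently.

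Markers of other cells moved along with these differences, and their part in them was not tested. Summed TPM of 8 astrocyte genes was 4479 and 5319 in the Uninjured Control mice and 8909 to 11353 in the injured mice. Gfap held much of this rise, with a mean of 1712 TPM in the controls, 6640 with vehicle and 7010 with atorvastatin. Of the 8 genes, 4 were called as upregulated and 1 as downregulated in each comparison. The 10 microglia or macrophage genes went from 272 and 459 to 2518 to 4280, with 7 of 10 called as upregulated with vehicle and 8 with atorvastatin. The 10 neuron genes went from 9983 and 12558 to 6148 to 10040, with 7 and 8 called as downregulated. Of all 16091 genes tested, 3195 were called as upregulated and 1594 as downregulated with vehicle, and 4004 and 2256 with atorvastatin. Fibroblast genes, 6 in number, summed to 122 and 138 in the controls and 63.3 to 1141 in the injured mice, and 6 endothelial genes to 103 and 155 against 79.1 to 181. The 9 Schwann cell genes summed to 431 and 710 in the controls and 109 to 519 in the injured mice. Dhh was at 0 counts in both controls.

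The central question of the study was what delayed atorvastatin changes in the injured cord. The members were compared between the treatments gene by gene and then as a sum. In SCI + Atorvastatin vs. SCI + Vehicle, 0 of 9 members were called at an unadjusted p below 0.001, against 0.106% of all genes tested. For 0 of 9 did edgeR give an unadjusted p under 0.05, against 1132 of all 16091 genes. With 1 mouse left out, Mbp had such a p in 5 of 14 fits (0.0312 to 0.0469) and Mobp in 2, at 0.00548 without SCI + Vehicle replicate 1 and 0.0492 without SCI + Atorvastatin replicate 1. With DESeq2, Mbp and Mobp had unadjusted p of 0.0400 and 0.0463. The members' median log2 fold change was -0.06, beside -0.0014 over all genes. Mbp was the member nearest to the limit, at 0.899-fold with a 95% interval of 0.806 to 1.003 (unadjusted p = 0.0563, adjusted p = 0.722 from edgeR). Its CPM was 5892 to 6897 with atorvastatin and 6611 to 9695 with vehicle, and the groups overlapped. Mobp was at 0.903-fold (0.809 to 1.008). Cldn11 was at 1.00-fold (0.912 to 1.10), Mog at 1.02-fold (0.908 to 1.15), Cnp at 1.03-fold (0.931 to 1.15), Mag at 0.962-fold (0.879 to 1.05) and Mal at 0.953-fold (0.870 to 1.04). The widest intervals were those of Myrf, 0.773 to 1.10, and Opalin, 0.893 to 1.40. A log2 change of 0.322 in either direction lay outside the interval for Cldn11, Mog, Cnp, Mag, Mal, Mbp and Mobp.

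Summed over the 9 members, TPM reached 12193 ± 771 (SD, n = 7) in SCI + Atorvastatin and 13224 ± 1295 (SD, n = 7) in SCI + Vehicle, while the Uninjured Control mice had 11401 and 15050. The 7 SCI + Atorvastatin mice ranged from 10798 to 12982, all below the vehicle median of 13052, and the ranges overlapped because the SCI + Vehicle mice began at 12146. The difference of -1030 TPM had an exact two-sided permutation p of 0.0728 over 3432 assignments, with a 95% interval of -2295 to 80.6 from the same test. In CPM the sum was lower with atorvastatin by an exact permutation test (difference of -864 CPM, p = 0.00758). SCI + Vehicle replicate 7 was at 13222 CPM and the other SCI + Vehicle mice at 9779 to 10081, and without it the difference was -395 CPM (exact permutation p = 0.0221). With each injured mouse left out in turn, the difference in CPM ran from -969 to -395. The exact permutation p was 0.00408 to 0.0455 in these fits, which were chosen after the data were seen. Without Mbp the difference was -81.1 TPM (exact permutation p = 0.602). SCI + Vehicle replicate 7 had the highest sum of all mice at 15946 TPM, and without it the difference was -577 (exact permutation p = 0.150). The sum also differed at an exact permutation p of 0.0373 without SCI + Vehicle replicate 1 and 0.0431 without replicate 6. Without replicates 4 and 7, the mice low in Schwann cell genes, it was -621 (exact permutation p = 0.162).

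In balance, 0 of 9 members differed between the treatments, with the smallest exact permutation p at 0.108 for Mbp, which stood 0.11 lower among the members on the log2 scale with atorvastatin (adjusted p = 0.581 over the 9). All 9 Schwann cell genes, 6 of 6 fibroblast, 6 of 6 endothelial and 10 of 10 microglia or macrophage genes had a log2 fold change above 0 with atorvastatin, and 10 of 10 neuron genes one below 0. All 6 fibroblast genes had an unadjusted p under 0.05 from edgeR, with a median of 0.94 on the log2 scale, and 0 of these genes were called. Of all 16091 genes tested, 1132 had such a p. Summed fibroblast TPM was 95.3 and 63.3 in SCI + Vehicle replicates 4 and 7, the mice low in Schwann cell genes. In the other SCI + Vehicle mice it was 326 to 685. The part of these lists in the members' differences was not tested.

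The other genes of myelin and oligodendrocytes were taken from a list of 47, all of which were tested. Against the Uninjured Control group, 29.8% of all genes tested were called with vehicle and 38.9% with atorvastatin. Of the 47 genes, 8 were upregulated and 5 downregulated with vehicle, with a median log2 fold change of 0.02. With atorvastatin 11 were upregulated and 6 downregulated, with a median of 0.00. On log2(TPM + 1) with limma the numbers were 9 and 0, and 13 and 3, beside 27.7% and 39.3% of all genes tested. Without Uninjured Control replicate 1 they were 10 and 9, and 12 and 12, and without replicate 2 they were 16 and 6, and 18 and 11. The share of all genes called rose as well in these fits, to 47.7% and 60.3% without replicate 1 and 48.5% and 61.1% without replicate 2. Of 10 genes of the myelin membrane only Tspan2, a tetraspanin, and Hapln2, a link protein of the node of Ranvier, were called, both upregulated in each comparison. Their log2 fold changes were 0.59 and 0.58 with vehicle and 0.47 and 0.46 with atorvastatin.

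Enzymes of myelin lipids went both ways. Fa2h, which hydroxylates the fatty acids of galactolipids, was 90.1 and 172 TPM in the Uninjured Control mice, 64.6 to 107 with vehicle and 66.6 to 82.7 with atorvastatin. Its log2 fold change was -0.97 (edgeR adjusted p = 0.00833) and -1.10 (adjusted p = 0.00161). Ugt8a, which makes galactosylceramide, was downregulated by 0.62 (edgeR adjusted p = 0.00984) and 0.64 (adjusted p = 0.0165) on the log2 scale. Elovl7, a fatty acid elongase, was upregulated in both comparisons, at 1.15 and 1.19. Elovl1 was called with vehicle at -1.09 and the ceramide synthase Cers2 with atorvastatin at 0.39.

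Slc16a1, the monocarboxylate transporter MCT1 through which oligodendrocytes pass lactate to axons, had the largest change of the list. It was 16.4 and 19.4 TPM in the controls, 43.1 to 69.0 (median 64.1) with vehicle and 67.6 to 81.0 (median 69.2) with atorvastatin, with no overlap between injured mice and controls. Its log2 fold change was 1.36 (SE 0.180, edgeR adjusted p = 0.000448) and 1.62 (SE 0.148, adjusted p = 3.98e-05). MCT1 is also made by endothelial cells and astrocytes. Nfasc, whose product holds the paranodal loops to the axon, was upregulated at 0.48 in both comparisons. Among soluble and secreted products Apod was upregulated, at 0.75 and 0.97, and Qdpr and Ppp1r14a were downregulated, at -0.58 and -0.65 with vehicle and -0.57 and -0.69 with atorvastatin. Gsn was called with atorvastatin, at 0.82. Of 4 receptors Plxnb3, which binds a semaphorin, was upregulated, at 0.87 and 0.96.

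Of the 10 transcription factors, St18 was upregulated in both comparisons, at 1.14 and 1.06, while Tcf7l2, a marker of newly formed oligodendrocytes, was called with atorvastatin at 1.20 and Olig1 and Sox8 at -0.56 and -0.48. Sox10 and Olig2 gave log2 fold changes of -0.01 and -0.01 with vehicle and 0.00 and -0.11 with atorvastatin, with 95% intervals as wide as -0.66 to 0.65 for Sox10 and -0.91 to 0.79 for Olig2. The 2 control mice had 59.3 and 160 TPM of Sox10 and 46.7 and 12.0 of Olig2. Between the treatments 0 of the 47 genes passed with edgeR. Of all 16091 genes tested 1132 had an unadjusted p under 0.05, and of the 47 genes 3 did. These were Elovl1, Slc16a1 and Gsn, all higher with atorvastatin, with an adjusted p of 0.680 each.

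**Figure D4:**
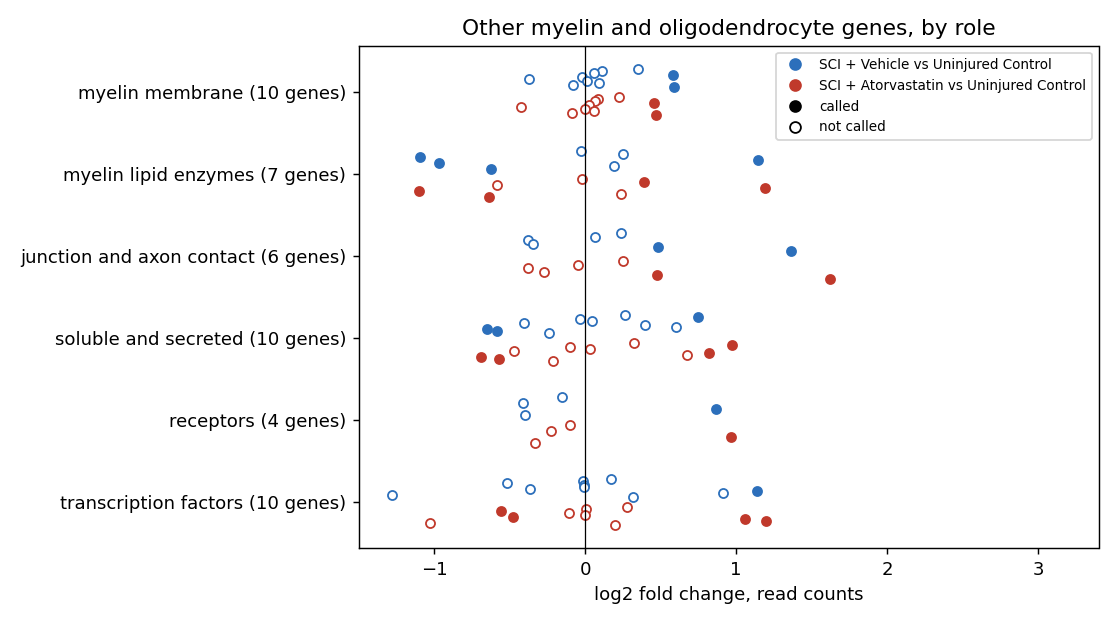
Log2 fold change on counts (x axis) of 47 other myelin and oligodendrocyte genes, grouped by role (y axis). Colours give the comparison and filled points were called, 8 upregulated and 5 downregulated with vehicle and 11 and 6 with atorvastatin.

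Genes of oligodendrocyte precursors and of cells about to myelinate were measured by a list of 8. With vehicle 4 were upregulated and 1 downregulated, beside 29.8% of all genes tested called in either direction. With atorvastatin 5 were upregulated and 1 downregulated, beside 38.9%. Gpr17, a receptor of committed precursors, was 9.21 and 9.83 TPM in the Uninjured Control mice and 27.4 to 46.1 in the injured mice. Its log2 fold change was 1.42 with vehicle (edgeR adjusted p = 0.000641) and 1.40 with atorvastatin (adjusted p = 5.87e-05). Itpr2 rose by 1.52 and 1.60, C1ql1 by 1.77 and 2.08 and the proteoglycan gene Cspg4, which pericytes also express, by 2.97 and 3.16 on the log2 scale. Pdgfra, which fibroblasts express too, was called with atorvastatin at 0.97. Bcas1, a gene of early myelinating cells, was downregulated by 0.40 and 0.48. The summed TPM of the 8 genes was 658 and 827 in the controls and 660 to 813 in the injured mice. Bcas1 made up most of this sum, at a mean of 658 TPM over the controls, 579 with vehicle and 536 with atorvastatin. In each comparison 7 of the 8 genes had a log2 fold change above 0, and the median was 1.01 with vehicle and 1.18 with atorvastatin.

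Within the 14 injured mice the level of the members, as the mean of their log2 CPM centred in each treatment group, was compared with 8 lists over mice by permutation tests with 100000 resamples, two-sided. The wider myelin list varied with the members (Pearson r = 0.69, permutation p = 0.00487, adjusted p = 0.0390 over 8 lists, Spearman rho = 0.68, adjusted permutation p = 0.0686). Without the 2 mice farthest from the list median r was 0.80, and within each treatment it was 0.83. Without centring it was 0.66 (adjusted permutation p = 0.0698). The Schwann cell list had r = -0.63 (adjusted permutation p = 0.0849) and rho = -0.30, with r of -0.21 among SCI + Atorvastatin mice and -0.70 among SCI + Vehicle mice. Neuron, astrocyte, endothelium and fibroblast lists had r of 0.57, 0.54, -0.53 and -0.53, with an adjusted permutation p of 0.0849 each. The precursor list had r = 0.04 (adjusted permutation p = 0.901) and the microglia or macrophage list 0.14 (adjusted permutation p = 0.722). All values of a mouse share 1 library.

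SCI + Vehicle replicate 7 had the highest member level and the lowest Schwann cell level. Without this mouse alone, r was 0.72 for the wider myelin list (adjusted permutation p = 0.0241), 0.81 for precursors (adjusted permutation p = 0.00776), -0.09 for Schwann cells, 0.08 for neurons, 0.15 for endothelium and -0.08 for fibroblasts. It was among the 2 mice farthest from the median for the precursor, Schwann cell, neuron, endothelium and fibroblast lists, and without those 2 mice r was 0.78, -0.51, 0.20, 0.26 and -0.42. When SCI + Vehicle replicates 4 and 7 were left out, the precursor list had r = 0.79 (adjusted permutation p = 0.0175).

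**Figure D5:**
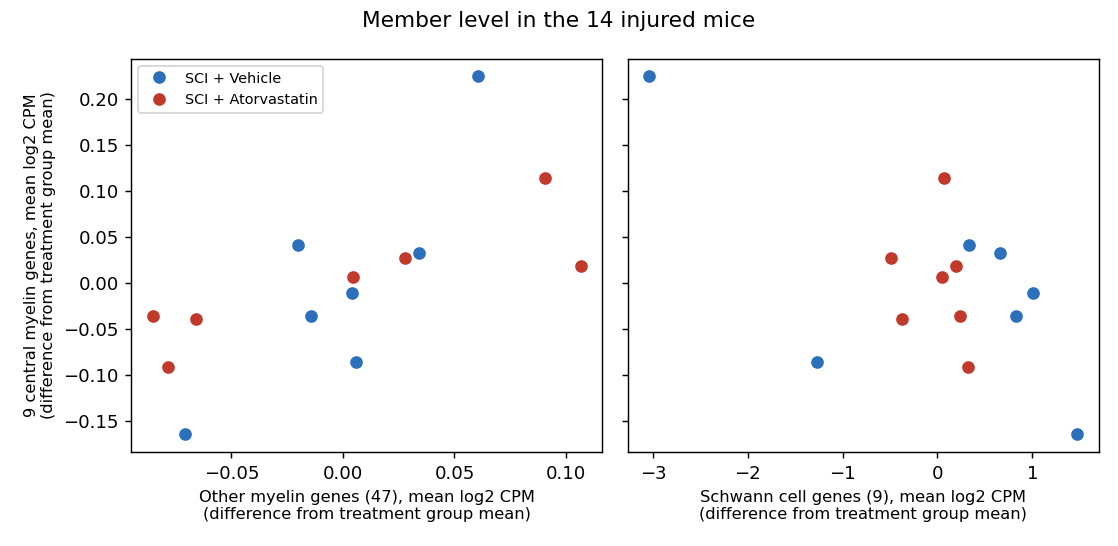
Mean log2 CPM of the 9 central myelin genes (y axis) in the 14 injured mice against that of 47 other myelin genes (left) and 9 Schwann cell genes (right), each as the difference from its treatment group mean. Points are mice, coloured by treatment. The left panel has r = 0.69, and in the right panel the point at the upper left is SCI + Vehicle replicate 7.

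Single members followed the mean of the other 8 to different degrees over the same 14 mice. As a description, r was 0.74 for Cnp, 0.61 for Mag, 0.55 for Mbp, 0.53 for Mobp, 0.50 for Cldn11, 0.39 for Mog, 0.37 for Opalin, 0.31 for Mal and 0.14 for Myrf. Among 15922 other genes that varied, those most like the mean of the members' z-scores, by r, included Cry1 (0.90), Zc3h15 (0.88), Bcas1 (0.88), Cpe (0.87), Bod1 (0.87), Khdrbs3 (0.87), Aig1 (0.87), Hdac11 (0.86) and Wsb2 (0.86). At the other end were Dhh (-0.87), 1110007C09Rik (-0.88), Smok4a (-0.88), Gm15910 (-0.89) and Ugt1a7c (-0.90). Both sets are extremes of 15922 correlations over 14 mice that include SCI + Vehicle replicate 7, and no chance level was set. Sox10 had r = 0.34 and Olig2 0.11.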

How the data were processed

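RNA of 16 mouse spinal cords was sequenced from stranded total RNA libraries (SMARTer Pico kit). For read quality, trimming, alignment to mm10 and quantification the submitters' processing notes name FastQC 0.12.1, Trimmomatic 0.38, STAR 2.5.4b and RSEM 1.3.1. The authors deposited a table of whole-number gene counts, not normalized, and one of TPM, which RSEM corrects for effective length, and the step that made the counts whole is not given in the sources used here. Groups came from the sample labels.

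The 16091 genes whose mean TPM exceeded 1 in any condition entered edgeR 4.0.16 (R 4.3.3), with library sizes from all genes, TMM factors and quasi-likelihood fits of 2 groups each. Alternatives used DESeq2 1.42.0 and limma 3.58.1. Intervals are 95%. Recovery in simulated counts was taken at an edgeR adjusted p below 0.05 without a fold limit. Of 100 genes changed 2-fold, 10% passed with 7 mice against 2 in the vehicle design, 21% in the atorvastatin design and 78% with 7 against 7. Of 100 genes changed 8-fold, 72%, 70% and 98% passed. The rule used between the treatments, an unadjusted p below 0.001 with the fold limit, was not simulated. Exact permutation and correlation tests used scipy 1.17.1 in Python 3.11.15. Positions are from GENCODE M21 on GRCm38, and promoter windows from RefSeq on GRCm38.p6 matched 7 of 9 members by symbol.

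The members, the lists and the tests were chosen with earlier results of these data known. Named genes were the members, the called genes of each list (the 4 with the smallest p where more were called in a direction), Sox10 and Olig2, and the 10 genes most like and 5 least like the members. Some genes that this rule names are not reported here. Lists covered precursor and premyelinating, Schwann cell, neuron, astrocyte, microglia or macrophage, endothelium, fibroblast, liver and kidney genes besides 6 roles in myelin. Leaving out both SCI + Vehicle mice low in Schwann cell genes, replicate 7 alone from the relations, and each injured mouse from the summed CPM were chosen after the data were seen.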

Additional observations from a re-analysis of the deposited data

Results flagged for a closer look

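In 38 groups of 7 values (9 members in TPM and in CPM and the summed TPM, in each treatment), 6 had a highest or lowest mouse whose gap to the next exceeded Dixon's 95% limit for its share of the range. Chance gives about 1 in 20 for a single group. The groups were not independent, since each member entered in TPM and in CPM and Mbp made up most of the sum. The count of 6 is therefore not a test for an excess. In SCI + Vehicle, replicate 7 was highest for Mbp, at 12743 TPM against 10092 in the next mouse and at 9695 CPM against 7285, and for the summed TPM of the members, at 15946 against 13417. This library also had the lowest summed TPM of Schwann cell and fibroblast genes. SCI + Vehicle replicate 1 was lowest for Mobp, at 557 TPM against 837, and for Cnp, at 522 TPM against 687. In SCI + Atorvastatin, replicate 6 was lowest for Mal, at 361 CPM against 411.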

How the results depend on the processing

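Over the settings that left no single mouse out, 314 values of single members or lists kept their direction and their side of the threshold, 23 lost the call, 7 gained it and 22 changed sign. Against the Uninjured Control group 0 members were called in either comparison with voom and a weight for each group. There 131 and 145 of 16091 genes were called. With the replicate number as a block 0 members were called, and 27 and 0 of all genes. The edgeR adjusted p was then 0.452 and 0.575 for Cldn11 and 0.682 and 0.782 for Mog. Only replicates 1 and 2 occur in the Uninjured Control group, so the contrast with the block rests on those mice. Calls lost with it therefore cannot show whether a call holds. The labels share replicate numbers between groups but state no pairing. Same-numbered mice had deviations that correlated at -0.15 to 0.09, which cannot settle whether any were paired. With limma on log2(TPM + 1) or log2(TPM + 0.001) 1 member, Cldn11, was called in each comparison, and without both SCI + Vehicle mice low in Schwann cell genes 1 was called with vehicle, Mog.

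Leaving out 1 mouse in turn gave 2 to 4 called members with vehicle and 2 to 7 with atorvastatin, the 4 and 7 without Uninjured Control replicate 1, where 47.7% and 60.3% of all genes were called, and the 2 with atorvastatin without replicate 2, where the lone control is assumed to vary like the injured mice. It gave 0 to 0 between the treatments, 0 to 0 in balance, and -1210 to -577 for the difference in summed TPM. In CPM that difference was -864 (exact permutation p = 0.00758). Of the 8 lists 0 passed without centring, 3 on log2(TPM + 1), 2 without both mice low in Schwann cell genes and 2 without SCI + Vehicle replicate 7.

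Sign changes were as follows. In SCI + Vehicle vs. Uninjured Control, Mag was 0.0168 with total counts, 0.0112 with genes above 1 TPM in every condition, 0.0157 with voom, 0.263 and 0.264 with limma on the 2 TPM scales and 0.00267 with the block, and limma gave Mbp 0.000608 and 0.000609 and Opalin 0.411 and 0.417. With atorvastatin limma gave Cnp 0.0581 and 0.0583, Mag 0.225 and 0.226 and Opalin 0.543 and 0.551. Between the treatments Cldn11 was -0.00102 with DESeq2, -0.00105 with its size factors and -0.00347 with genes above 1 TPM in every condition. The relation r was -0.0230 for precursors without centring, -0.0925 for microglia or macrophage genes on log2(TPM + 1) and 0.106 for endothelium without both mice low in Schwann cell genes and 0.151 without SCI + Vehicle replicate 7, against -0.53 with all mice. With 1 mouse left out, log2 fold changes with vehicle ran from -0.539 to 0.0117 for Mal, -0.473 to 0.0191 for Cnp and -0.292 to 0.330 for Mag, and with atorvastatin from -0.403 to 0.0815 for Cnp and -0.324 to 0.291 for Mag, the ends being set by the 2 control mice. Between the treatments they ran from -0.0332 to 0.0229 for Cldn11 and -0.00534 to 0.0672 for Mog, and the balance of Mag from -0.0426 to 0.00676. The cause was not tested. With 2 control mice, the spread among uninjured mice is poorly known.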
